A study of Homo sapiens with 4 samples.

Results

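The regulators of G-protein signalling (RGS proteins) described here are 9 genes, RGS1, RGS2, RGS3, RGS10, RGS12, RGS14, RGS16, RGS18 and RGS19, found by symbol among 60662 genes and transcripts in the deposited count table. They were measured by sequencing of poly(A)-enriched RNA from U937, an established line of human myeloid cells that came from a histiocytic lymphoma. The 4 libraries are a culture without and a culture with 10 nM phorbol 12-myristate 13-acetate (PMA), each for 72 h, in each of 2 lots. PMA, a phorbol ester, switches on protein kinase C, and the labels give its purpose here as turning the cells into macrophage-like cells. No transgene, knockout or second agent is named in the labels. They do not say what a lot is, so the spread between libraries may be technical.

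A receptor coupled to a heterotrimeric G protein loads the alpha subunit with GTP, and signalling lasts until that GTP is hydrolysed. RGS proteins share a domain, the RGS box, that binds the GTP-loaded alpha subunit and speeds up this hydrolysis, so that they shorten the response to chemokines, complement fragments, lipids and hormones. The R4 proteins (here RGS1, RGS2, RGS3, RGS16 and RGS18) are mostly small and mostly known as regulated by transcription. The R12 proteins (RGS10, RGS12 and RGS14) differ widely in size and extra domains, and RGS19, also called GAIP, belongs to the RZ proteins. In leukocytes, RGS1 and RGS16 are known for limiting migration towards chemokines, and RGS18 is known from platelets and megakaryocytes.

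Total counts ranged from 35739833 to 54915928 per library. Levels are in CPM, the count relative to the TMM-adjusted size of its library, and pairs of values give lot 1 first. A count of 0 allows up to 3 counts, or 0.0474 and 0.0695 CPM in the untreated and 0.0920 and 0.0649 CPM in the PMA libraries, which covers counting error only. Of 8 myeloid markers, 7 were at a mean of 1 CPM or more untreated and all 8 with PMA, while the 4 T cell, 4 erythroid and 4 fibroblast markers were at 0 in every library. Of the 4 B cell markers, 2 reached that level in each group. The untreated library of lot 2 stood apart in genes at few counts: of 14748 tested genes with at least 20 counts in the other untreated library, 865 (5.87%) had 0 or 1 count in it, against 98 of 13822 (0.709%) the other way round.

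The 9 genes were chosen by their levels in these same 4 libraries, so the comparison of PMA with untreated cells is given for them as a description, without a test. The 4 genes whose levels differed most between the groups and that have a single start in the RefSeq promoter table are shown first, as the 250 bases before that start (GRCh38.p14). RGS18 lies on the plus strand (chr1:192158212-192158461), as do RGS1 (chr1:192575523-192575772) and RGS2 (chr1:192808789-192809038), while RGS16 lies on the minus strand (chr1:182604390-182604639). They are written 5′ to 3′, and capitals mark every match on either strand to the motifs named after them.
RGS18: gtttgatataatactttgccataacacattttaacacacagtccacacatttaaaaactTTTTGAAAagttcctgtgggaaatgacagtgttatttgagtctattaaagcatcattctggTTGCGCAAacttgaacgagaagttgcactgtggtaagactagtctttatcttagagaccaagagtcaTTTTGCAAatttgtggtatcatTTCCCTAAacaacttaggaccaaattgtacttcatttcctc
RGS1: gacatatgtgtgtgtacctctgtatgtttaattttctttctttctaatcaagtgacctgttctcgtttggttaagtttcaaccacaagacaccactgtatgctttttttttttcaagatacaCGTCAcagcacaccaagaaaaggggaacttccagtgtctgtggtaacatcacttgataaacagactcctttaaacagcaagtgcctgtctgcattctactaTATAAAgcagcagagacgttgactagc
RGS2: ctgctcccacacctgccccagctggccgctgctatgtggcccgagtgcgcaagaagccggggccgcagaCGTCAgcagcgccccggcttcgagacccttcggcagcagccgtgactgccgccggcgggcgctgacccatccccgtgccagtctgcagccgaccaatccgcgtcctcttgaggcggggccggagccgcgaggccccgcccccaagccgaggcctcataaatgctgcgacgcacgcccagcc
RGS16: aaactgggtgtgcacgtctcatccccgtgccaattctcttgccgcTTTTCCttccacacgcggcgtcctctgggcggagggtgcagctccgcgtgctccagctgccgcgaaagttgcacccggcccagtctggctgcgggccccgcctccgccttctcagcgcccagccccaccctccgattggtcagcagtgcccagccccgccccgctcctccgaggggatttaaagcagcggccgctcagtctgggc

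Of the motifs searched, C/EBP (TTNNGNAA, in 33.2% of the 35116 promoters of this length in the table) matched at 4 places before RGS18 (−191, −130, −63 and −41, the first base of each match counted back from the start). The 5-base core of the cAMP response element (TGACG, 21.2% of promoters) matched once before RGS1, at −128, and once before RGS2, at −181, and a TATA box (TATAAA, 10.7%) matched at −27 before RGS1. The NFAT core (GGAAAA, 21.2%) matched once before RGS16, at −205. None of the 4 windows held AP-1 (TGANTCA, 6.57%), the whole cAMP response element (TGACGTCA, 1.65%), PU.1 (GAGGAAGT, 2.17%), EGR (GCGNGGGCG, 8.41%), the NF-kB motif (5.21%) or the serum response element (1.16%). A match is only a run of letters, and bases outside these windows were not searched.

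Among the R4 genes, 4 were higher and 1 was lower in both PMA libraries. Groups that do not overlap were common. Of all genes tested, 31.0% had both PMA libraries above both untreated ones and 29.4% had both below. RGS1, which limits chemokine receptor signalling in lymphocytes and monocytes, was at 0 in both untreated libraries and at 399 and 593 CPM in the PMA libraries of lots 1 and 2 (13016 and 27433 counts). The groups did not overlap, and the mean of 496 ± 137 CPM (SD, n = 2) was at least 8487-fold higher than the floor of 3 counts per untreated library, or at least 8419-fold and 8534-fold in lots 1 and 2 taken alone.

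RGS2, known for its preference for Gq-type alpha subunits, had 47 counts and 1 count in the untreated libraries (0.743 and 0.0232 CPM) and 137 and 349 CPM with PMA. Both PMA libraries were far above both untreated ones. In lot 1 the ratio was 184, while in lot 2, where it rests on 1 untreated count, it was 15086 with an exact 95% interval of 2707 to 595916 that covers counting error only. The fitted log2 fold change was 9.23 ± 1.51 (SE).

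RGS16, an inducible regulator of Gi- and Gq-type subunits, was at 7.27 and 14.7 CPM untreated, and at 220 and 604 CPM with PMA. The groups did not overlap. The ratio was 30.3 in lot 1 and 41.1 in lot 2, and the fitted log2 fold change was 5.23 ± 0.74.

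RGS3, which acts on Gi- and Gq-type subunits and is transcribed from several starts, had 73 counts and 0 counts in the untreated libraries (1.15 and 0 CPM) and was at 13.1 and 20.8 CPM with PMA. The ratio in lot 1 was 11.4, and in lot 2 PMA was at least 300-fold above the floor. The fitted log2 fold change was 4.85 ± 1.80. It was 3.87 without untreated replicate 2 and 12.41 without untreated replicate 1, where the remaining untreated library is at 0 and the value rests on a prior count.

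RGS18 went the other way. It was at 42.7 and 17.2 CPM in the untreated libraries and at 5.34 and 1.69 CPM in the PMA libraries, and the groups did not overlap. The ratio of PMA to untreated was 0.125 in lot 1 and 0.0981 in lot 2, which makes the mean 8.53-fold lower, with a fitted log2 fold change of −3.10 ± 0.82. Of 5 markers of megakaryocytes and platelets, PPBP was at 1776 and 570 CPM and PF4 at 1.66 and 1.08 CPM with PMA, while ITGA2B, GP9 and GP1BA were at 0 in both PMA libraries. Without PMA, ITGA2B was at 0.395 and 0 CPM, GP1BA at 0.822 and 0 CPM, and GP9 at 0. Summed over the 5 markers, the level was 1.22 and 5.14 CPM without PMA and 1778 and 571 CPM with it, nearly all of the latter from PPBP. Any part of this in the level of RGS18 was not tested.

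**Figure D1:**
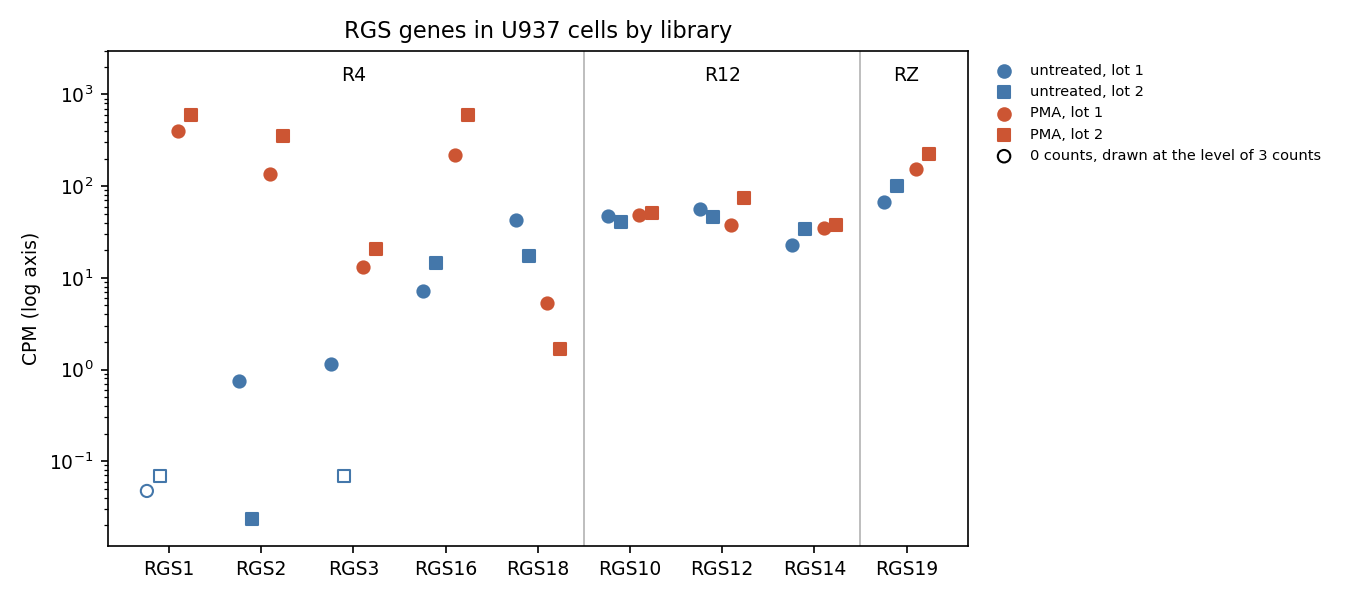
CPM (log axis) of the 9 RGS genes, with a circle for lot 1 and a square for lot 2, in blue for untreated and red for PMA libraries. Open symbols are 0 counts drawn at the level of 3 counts. RGS1, RGS2, RGS3 and RGS16 are higher in both PMA libraries, RGS18 is lower, and the 3 R12 genes stay between 22.7 and 74.7 CPM.

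The means of the 3 R12 genes had log2 fold changes between 0.13 and 0.36. RGS10, a small protein with little beyond the RGS box that is known in macrophages and microglia, was at 47.0 and 40.5 CPM untreated, and at 48.8 and 50.9 CPM with PMA (log2 fold change 0.19 ± 0.33). RGS14, which carries Ras-binding domains and a GoLoco motif that binds GDP-loaded Gi subunits, was at 22.7 and 33.8 CPM and at 35.0 and 37.5 CPM (0.36 ± 0.39). In both genes the lowest PMA value lay just above the highest untreated one, by less than the spread between the untreated libraries.

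RGS12, the largest R12 protein, with PDZ, phosphotyrosine-binding and Ras-binding domains besides its RGS box, was the only member whose lots disagreed in direction. It was at 56.4 and 46.4 CPM untreated, and at 38.0 and 74.7 CPM with PMA. The PMA value was the lower in lot 1 (ratio 0.674) and the higher in lot 2 (ratio 1.61), and the groups overlapped. The fitted log2 fold change of 0.13 ± 0.45 turned to −0.03 with upper-quartile scaling, to −0.42 without PMA replicate 2 and to −0.003 without untreated replicate 2.

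RGS19, a regulator of Gi-type subunits first described on membranes of the secretory pathway, was at 66.7 and 101 CPM untreated, and at 152 and 225 CPM with PMA. The groups did not overlap, and the ratio was nearly the same in both lots, 2.28 in lot 1 and 2.23 in lot 2. The fitted log2 fold change was 1.17 ± 0.39.

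**Figure D2:**
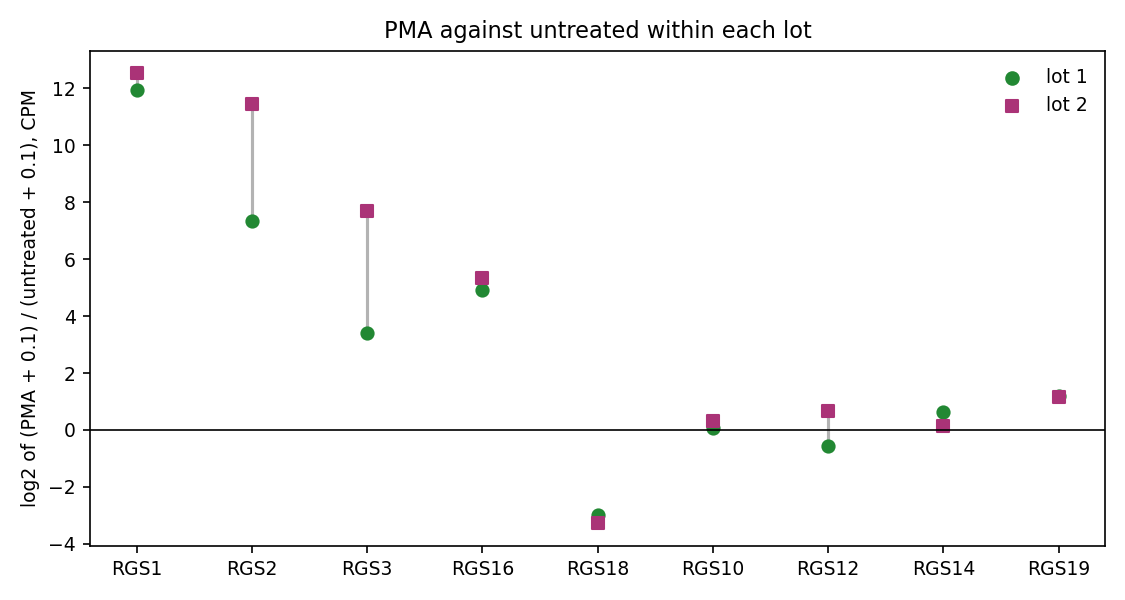
Log2 ratio of PMA to untreated CPM within each lot, after adding 0.1 CPM to both, for the 9 RGS genes (circles lot 1, squares lot 2). The lots lie close together for RGS10, RGS14, RGS16, RGS18 and RGS19, and have opposite signs for RGS12. They lie far apart for RGS2 and RGS3, which had 1 count and 0 counts in the untreated library of lot 2.

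In the fit across all 16451 genes tested, using the quasi-likelihood test of edgeR with a Benjamini-Hochberg threshold of 0.05, 6.30% of genes were called, 4.29% as higher and 2.02% as lower with PMA. All 9 RGS genes entered that fit. RGS1, RGS2 and RGS16 are among the genes called as higher, and the other 6 are not among the called genes. The PMA libraries were both above both untreated libraries for 7 members, against 31.0% of all genes tested, and both below for 1 member, against 29.4%. Over all genes tested, the share called was 5.08% with the lot as a block, 23.3% with DESeq2 and 8.16% in the authors' deposited table, and the number of members among them was 3, 6 and 3. Since the same values led to the choice of the genes, nothing is read from these counts. The median log2 fold change was 1.17 over the 9 genes, which is the value of RGS19, and 0.00 over all genes tested.

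In the authors' deposited table the log2 ratios were 9.30 for RGS2, 5.23 for RGS16, 4.86 for RGS3, 1.16 for RGS19 and −3.12 for RGS18. That table also lists a ratio for RGS1, which is at 0 in both untreated libraries, so it is not a size and is left out.

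To compare the genes with each other, CPM was divided by the length in kilobases of the longest transcript in GENCODE release 29, which need not be the transcript these cells make. Without PMA, RGS19 (52.5 ± 15.1 CPM per kb) and RGS10 (51.3 ± 5.39) led, and their ranges overlapped. RGS18 (13.9 ± 8.39), RGS14 (11.7 ± 3.25) and RGS12 (9.33 ± 1.27) followed, each overlapping the next. RGS16 (4.53 ± 2.17) was below these, and RGS2, RGS3 and RGS1 were at 0.549 CPM per kb or less in both libraries.

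With PMA the order was led by RGS1 (187 ± 51.7 CPM per kb), RGS2 (179 ± 111), RGS16 (170 ± 112) and RGS19 (118 ± 32.3), whose neighbours in the order overlapped. RGS10 (58.5 ± 1.75), RGS14 (15.0 ± 0.731), RGS12 (10.2 ± 4.71), RGS3 (3.70 ± 1.19) and RGS18 (1.63 ± 1.20) came next, each with a range apart from that of the gene above it. The summed level of the 9 genes was 140 and 147 CPM per kb without PMA and 522 and 966 CPM per kb with it. RGS10 and RGS19 together made up 69.2% and 75.2% of that sum untreated, and 29.3% and 20.8% with PMA. RGS1, RGS2 and RGS16 together went from 2.53% and 4.13% to 65.6% and 75.6%.

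**Figure D3:**
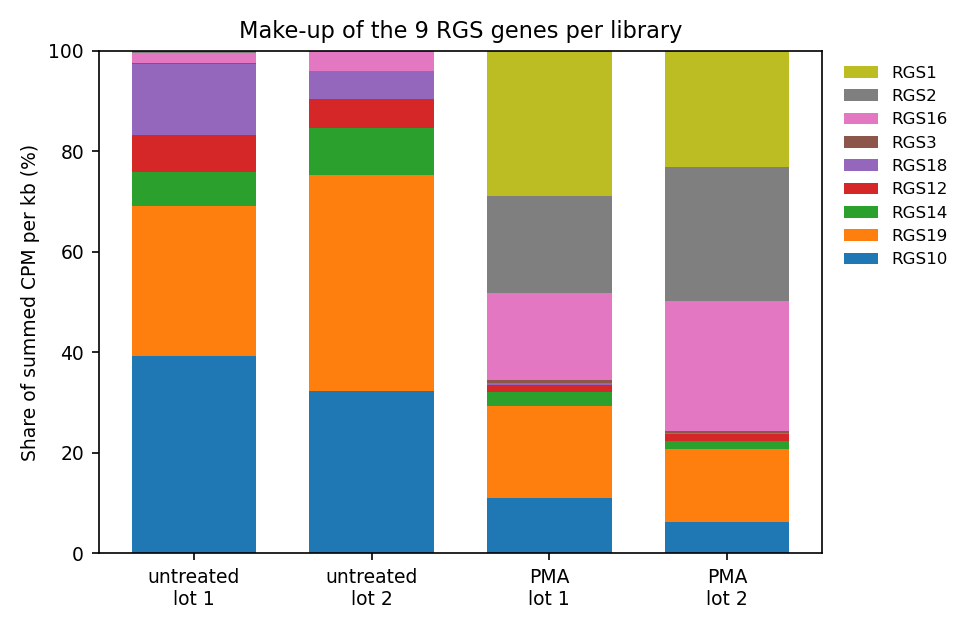
Share (%) of each RGS gene in the summed CPM per kb of the 9 genes, 1 bar per library. RGS10 and RGS19 fill most of both untreated bars, and RGS1, RGS2 and RGS16 fill 65.6% and 75.6% of the PMA bars.

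In bulk RNA, more cells that express a gene and more RNA per cell cannot be told apart. The PMA libraries also differed between lots. In the PMA library of lot 2 against that of lot 1, RGS16 was 2.74-fold, RGS2 2.56-fold and RGS12 1.97-fold higher. RGS3 was 1.59-fold, RGS1 1.49-fold and RGS19 1.48-fold higher, while RGS18 had a ratio of 0.316, RGS14 of 1.07 and RGS10 of 1.04. Over the 15205 tested genes with counts in both PMA libraries, the median of this ratio was 1.00, and 11.1% of genes were at least 2-fold higher in lot 2. RGS18 was also lower in lot 2 without PMA (ratio 0.403), and RGS16 (2.02), RGS19 (1.51) and RGS14 (1.49) were higher. Of those 15205 genes, 17.7% had counts in both untreated libraries and were at least 2-fold higher in lot 1 without PMA.

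By RefSeq order on chromosome 1, RGS18, RGS21, RGS1, RGS13 and RGS2 are 5 consecutive protein-coding genes, and they did not share a pattern. RGS18, at one end, was lower with PMA, RGS21 was at 0 in all 4 libraries, and RGS1 and RGS2 were higher. RGS13, known from B cells and mast cells and not among the 9 genes, was at 0 in both untreated libraries and at 7.85 and 16.4 CPM with PMA. It rose at least 207-fold against the floor of 3 counts per library, higher in 2 of 2 lots (edgeR adjusted p = 0.0277, and 7.51e-11 to 0.0405 over 11 alternatives). RGS13 passed the count filter through its PMA libraries alone, so these p-values are given as a description. A long noncoding RNA on the opposite strand, AL390957.1, overlaps the RGS1, RGS2, RGS13 and RGS18 genes in GENCODE release 29 and had 18 and 0 counts untreated and 137 and 289 counts with PMA. No source used here gives the use of strand in the counting, so reads from where these genes overlap AL390957.1 cannot be told apart. With PMA, RGS1 had 13016 and 27433 counts, RGS2 4455 and 16165, RGS13 256 and 757, and RGS18 174 and 78. Any part of AL390957.1 in these counts was not tested.

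**Figure D4:**
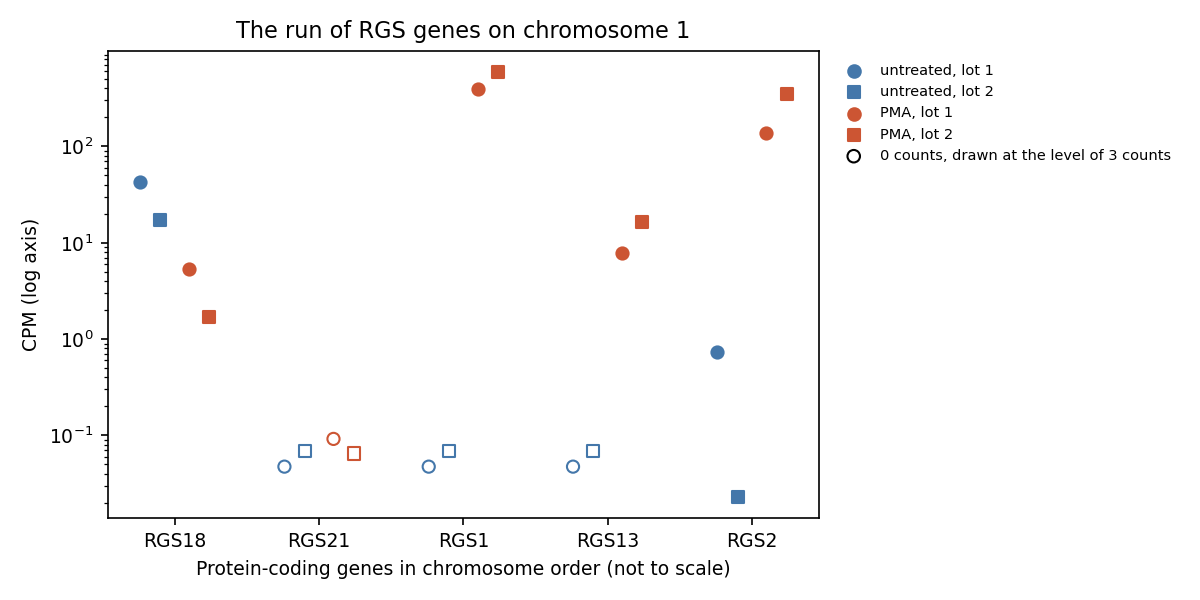
CPM (log axis) per library of the 5 neighbouring RGS genes on chromosome 1, in their RefSeq order and not to scale. Open symbols are 0 counts drawn at the level of 3 counts. RGS1, RGS13 and RGS2 are higher in both PMA libraries, RGS18 is lower, and RGS21 is at 0 throughout.

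Of 12 other RGS genes, 10 had too few counts to be tested. RGS4, RGS6, RGS7, RGS8, RGS11 and RGS21 were at 0 in all 4 libraries, and RGS5, RGS17, RGS20 and RGS22 had at most 19 counts in any library. Of the 2 tested, RGS13 passed, as above, against 6.30% of all genes. The list was chosen with earlier results of these data known, so nothing is read from this count. RGS9, known from photoreceptors and striatal neurons, had 19 and 0 counts untreated (0.300 and 0 CPM) and was at 1.47 and 3.07 CPM with PMA. The fitted log2 fold change was 3.87 ± 1.86 (edgeR adjusted p = 0.266, or 0.292 with the lot as a block, and DESeq2 adjusted p = 0.125). It was 9.51 without untreated replicate 1, where the remaining untreated library is at 0 and the value rests on a prior count.

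RGS proteins act on heterotrimeric G proteins. None of 10 tested alpha subunit genes (median log2 fold change 0.51) and none of 10 tested beta and gamma subunit genes (0.08) passed edgeR's test, against 6.30% of all genes. At an unadjusted p under 0.05 there were 3 alpha genes and 0 beta and gamma genes, against 4445 of all 16451 genes tested. DESeq2 called 2 and 0, against 23.3% of all genes. The Gi-type subunit GNAI2 was at 608 and 859 CPM untreated, and at 910 and 1076 CPM with PMA (0.44 ± 0.32), and the Gq-type subunit GNAQ at 53.4 and 24.9 CPM and at 65.0 and 52.8 CPM (0.59 ± 0.48), both named for their link to the members after their values were seen. GNA13 had the smallest p of the alpha list, at 123 and 30.8 CPM and at 499 and 394 CPM (2.53 ± 0.71, adjusted p = 0.0971 by edgeR, ranging over 11 alternatives from 0.00117 to 0.209, with 2 calls). Among the beta and gamma subunits it was GNG7 (0.59 ± 0.32, edgeR adjusted p = 0.326, and 0.225 to 0.826 over the alternatives).

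Receptor kinases and arrestins switch receptors off, and other modulators act on the G protein. None of 7 receptor kinase and arrestin genes passed (median log2 fold change 0.72), against 6.30% of all genes. Of the 7, 0 had an unadjusted p under 0.05 or a DESeq2 call, against 4445 of all 16451 genes and 23.3%. The lowest p was that of arrestin ARRB1, which was at 103 and 94.8 CPM untreated, and at 203 and 121 CPM with PMA (0.72 ± 0.37, edgeR adjusted p = 0.299, and 0.254 to 0.927 over the alternatives). None of 16 tested modulators and other RGS-box proteins passed (median 0.50), against the same 6.30%. In this list 2 had an unadjusted p under 0.05 and DESeq2 called 1 higher and 1 lower. With lists this short, 0 passing edgeR's test is near the share of all genes, so nothing is read from either count. The guanine nucleotide exchange factor ARHGEF11, which has an RGS box, was at 16.6 and 9.71 CPM and at 38.4 and 31.8 CPM (1.41 ± 0.45, edgeR adjusted p = 0.124, and 0.0200 to 0.569 over the alternatives).

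Receptors lie upstream of the G proteins. Of 39 tested myeloid G-protein-coupled receptors, 9 rose and 1 fell (median log2 fold change 1.46), a share of 25.6% called against 6.30% of all genes. The list was chosen with earlier results of these data known, so nothing is read from this share. The chemokine receptor CCR1 rose from 4.33 and 6.00 CPM to 241 and 270 CPM (5.63 ± 0.40, edgeR adjusted p = 0.0148, higher in 2 of 2 lots). The chemerin receptor CMKLR1 and the formyl peptide receptor FPR1, both at 0 without PMA, reached 147 and 84.8 CPM and 24.7 and 31.7 CPM. They were at least 1981-fold and 482-fold higher (edgeR adjusted p = 0.0189 and 0.0206). Both passed the count filter through their PMA libraries alone, so these p-values are given as a description. The histamine receptor HRH2 fell from 75.8 and 86.2 CPM to 7.39 and 6.74 CPM (−3.52 ± 0.37, edgeR adjusted p = 0.0224, and 0.0629 and 0.0953 without PMA replicates 1 and 2 in turn). With DESeq2 the list had 19 higher and 4 lower genes, where DESeq2 called 23.3% of all genes.

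Of 14 tested effector genes, 4 rose and 0 fell (median log2 fold change 0.81). The share called, 28.6%, stands against 6.30% of all genes. This list too was chosen with earlier results of these data known, so nothing is read from the share. At an unadjusted p under 0.05, 6 were higher and 1 lower, against 4445 of all 16451 genes in either direction. DESeq2 called 6 higher and 1 lower, against 23.3% of all genes. The 4 genes that rose by edgeR include both regulatory subunits of the G-protein-driven phosphoinositide 3-kinase gamma. Its catalytic subunit PIK3CG, named after its values were seen, was at 115 and 52.9 CPM untreated, and at 39.4 and 16.8 CPM with PMA (−1.58 ± 0.62, edgeR adjusted p = 0.187). PIK3R6 rose from 2.80 and 2.90 CPM to 46.6 and 74.4 CPM (4.41 ± 0.47, edgeR adjusted p = 0.0224), and PIK3R5 from 30.8 and 40.9 CPM to 276 and 200.1 CPM (2.73 ± 0.37, edgeR adjusted p = 0.0281). The phospholipase PLCB2 rose from 40.3 and 55.2 CPM to 173 and 186 CPM (1.91 ± 0.33, edgeR adjusted p = 0.0423, but 0.0520 once lot was a block and 0.0592 by upper-quartile scaling). The fourth was the adenylyl cyclase ADCY7 (2.40 ± 0.45, edgeR adjusted p = 0.0480), named after its values were seen. Without PMA replicates 1 and 2 in turn, 1 effector passed each time, and the adjusted p was 0.101 and 0.0572 for PIK3R5, 0.207 and 0.240 for PLCB2 and 0.200 and 0.119 for ADCY7.

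**Figure D5:**
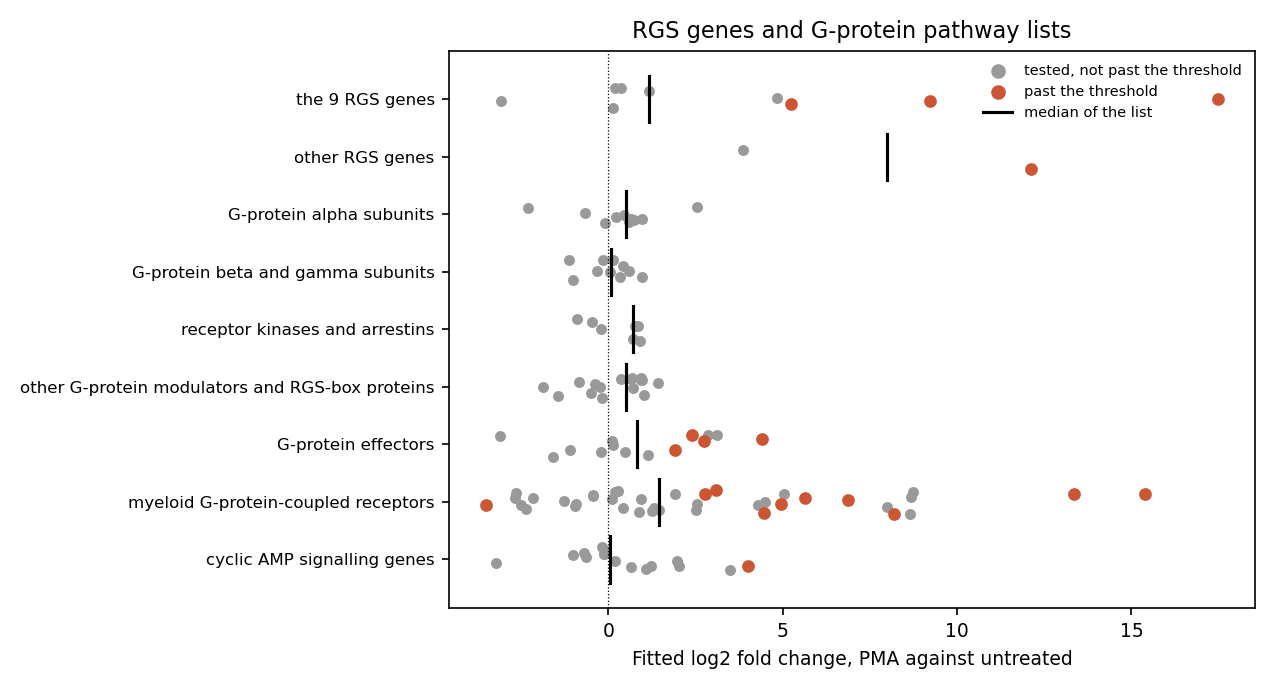
Fitted log2 fold change of PMA against untreated for the tested genes of each list (grey, or red where past the adjusted threshold of 0.05), with the list's median as a bar. Values of genes at 0 in a whole group rest on a prior count and are not sizes. The 9 RGS genes spread from −3.10 upwards, and none of the G-protein subunits is red.

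Log2 CPM was taken with a prior count of 2, and each gene was centred on its mean. Genes with a pattern most like that of a member were ranked by the root mean square difference in these values over the 4 libraries. For RGS1 these were the chemokine CCL1 (0.26), the activin subunit INHBA (0.36) and the lipid receptor TREM2 (0.44), which were at 0 without PMA as well. For RGS2 they were the chemokine CCL3 (0.38), SLC12A8 (0.55) and TRANK1 (0.63), and for RGS16 they were TYMP, AC092868.2 and HIVEP3 (0.30 to 0.31). For RGS18 they were DSE (0.04), the cytokinesis gene ANLN (0.09) and the kinetochore gene KNL1 (0.11). Mean levels of ANLN were 79.1 CPM untreated and 8.70 CPM with PMA, and those of KNL1 were 39.5 and 3.97 CPM. For RGS3 they were WHRN, AL390719.1 and MEFV (0.20 to 0.27), and for RGS19 they were RASAL3, TMCC2 and SERTAD3 (0.04 to 0.05). For RGS10 they were SEC11A, ARL3 and EAPP, for RGS12 they were BCAN, SNORA73B and TNK2, and for RGS14 they were UTP6, MSANTD3 and SH3BP5L (all between 0.02 and 0.05). Mean levels of AC092868.2 were 0.0195 CPM untreated and 2.33 CPM with PMA, and those of SNORA73B were 0.258 and 0.276 CPM. For genes this low, or at 0 without PMA, the likeness depends in part on the prior count. The ranking is a description over 4 libraries of 2 groups.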

How the data were processed

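RNA-seq libraries of U937 cells, 2 without and 2 with PMA, were grouped by their titles. The deposited main table holds estimated counts per gene, in which all values were whole, so rounding changed none. Another deposited table gives, for each gene, a signal that is the count times 1 factor per library, and the authors' log2 ratio, p-value and q-value per gene. HISAT2 2.1.0 and StringTie 2.1.1 are listed in the submitters' processing notes without roles. For the authors' test, genome build, annotation and strand setting, no source used here gives a name.

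Counts were tested with edgeR 4.0.16 in R 4.3.3 (TMM factors, filterByExpr by group, quasi-likelihood test, Benjamini-Hochberg adjustment at 0.05, no block), which left 16451 of 60662 genes, and the script was tested on simulated data. Standard errors were derived from F and the log2 fold change. The titles give the lot, which pairs the libraries (correlation of same-lot deviations from the group means 0.154 over genes), so the lot as a block was an alternative. The other alternatives were RLE and upper-quartile factors, no filter, DESeq2 1.42.0, a filter of 5 CPM in 2 libraries, leaving out each library, and, added after the data had been seen, the authors' scaling factors. The members and the lists were chosen with earlier results of these data known. Named genes were the 9 members, other RGS genes at 1 CPM or more, up to 3 called genes of each list with the smallest p plus 1 in the opposite direction, or the gene with the smallest p where none was called, and, for each member with a mean of 10 CPM or more in its higher group, the 3 tested genes of most similar pattern. GNAQ, GNAI2, PIK3CG, CXCR4 and ADCY7 were added after their values were seen.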

Additional observations from a re-analysis of the deposited data

How the results depend on the processing

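With 2 libraries per group the number of calls moved with the setting. Over all genes, 705 were higher and 332 lower, against 2136 and 1698 with DESeq2, 974 and 721 with a filter of 5 CPM in 2 libraries, and 591 and 244 with the lot as a replicate block. Leaving out 1 library at a time gave 424 to 1830 higher and 79 to 1085 lower genes, with the most higher calls without untreated replicate 1 and the fewest of both kinds without PMA replicate 2. The cause was not tested. With upper-quartile factors the median gene was at a log2 fold change of −0.17. Over the 11 alternatives the log2 fold change ranged from 8.35 to 13.12 for RGS2, 3.87 to 12.41 for RGS3, 4.34 to 5.82 for RGS16, −4.21 to −2.35 for RGS18, 0.84 to 1.497 for RGS19, 0.02 to 0.24 for RGS10 and 0.04 to 0.68 for RGS14, each with its direction kept, and from −0.42 to 0.47 for RGS12. The block ended the calls of RGS2 and PLCB2 and added that of RGS18, and it changed no other call among the members, the other RGS genes and the pathway genes named by the rule. Calls of members are given for completeness, since the same libraries chose them. PDE3B was not called without PMA replicate 1 (adjusted p = 0.0595).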

Other observations

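Among 16 tested genes of cyclic AMP signalling, the pathway that Gi- and Gs-type subunits control, 1 rose and 0 fell by edgeR (median log2 fold change 0.04), which is 6.25% of the list against 6.30% of all genes. At an unadjusted p under 0.05, 5 were higher and 1 lower, against 4445 of all 16451 genes in either direction. DESeq2 called 5 higher and 1 lower, against 23.3% of all genes. PDE3B, a phosphodiesterase that breaks down cyclic AMP, rose from 7.62 and 2.97 CPM to 107 and 64.1 CPM in lots 1 and 2 (4.01 ± 0.65, edgeR adjusted p = 0.0379, and 1.66e-09 to 0.0595 over 11 alternatives). CXCR4, a chemokine receptor coupled to Gi-type subunits, was at 285 and 281 CPM untreated, and at 216 and 198 CPM with PMA (−0.45 ± 0.28, edgeR adjusted p = 0.382).

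Before RGS13, the 250 bases upstream of the RefSeq start held 1 match to the C/EBP motif and none to the other motifs searched.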
